A study of Bos taurus with 17 samples.

Results

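Collagens, laminins, matrix glycoproteins and the integrins that bind them were followed in bovine cumulus cells at 3 stages of the oocyte. The set was made of all array probes whose design name or description spelled a collagen chain, a laminin chain, an integrin chain, or one of a few glycoproteins such as fibronectin and SPARC. It held 89 probes of 85 genes, out of 21475 probes of 19789 genes on the array, and 52 probes of 50 genes were measured well enough to be tested. The genes were not chosen by their values.

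Cumulus cells are the somatic cells packed around the oocyte. For the NC1 stage, 6 prepubertal calves, 3 to 6 months old, gave complexes with a compact cumulus and an oocyte in prophase I, aspirated after slaughter from follicles with a diameter of 3 to 6 mm. C1 complexes were taken in the same way from 6 adult cows. C2 complexes, with an expanded cumulus and an oocyte in metaphase II, came by ovum pick up from follicles larger than 8 mm of 5 cycling, non-lactating Holstein cows of 3 to 5 years. These cows carried progestagen ear implants, received a total of 400 μg of the FSH/LH preparation Stimufol, and were sampled 60 h after prostaglandin F2α. NC1 and C1 therefore differ in age as well as stage, and C2 differs from C1 also in follicle size, hormone treatment and collection, and these cannot be told apart here. The labels name the tissue as ovarian follicles, while the study's methods describe cumulus cells separated mechanically from the oocyte, and the latter is used. Each Agilent array received the Cy3-labelled product of 0.35 μg of RNA from 1 sample. Levels are log2 signals relative to the median probe of the array, so that 0 is that median. Because each probe binds with its own strength, levels are compared between stages and never between probes.

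Collagens form triple-helical chains. The fibrillar types build tensile fibres, type IV builds the network of basement membranes, and others decorate fibrils or span membranes. Laminins are trimers of an alpha, a beta and a gamma chain that self-assemble into basement membranes, where nidogens and perlecan link them to type IV collagen. Integrins are receptors made of an alpha and a beta chain, which couple these ligands to the actin cytoskeleton. A basement membrane surrounds the granulosa layer of a follicle, and the cumulus lies inside it, where it lays down a hyaluronan-rich matrix as it expands before ovulation.

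What a probe reads depends on which stretch of the transcript it matches. Of the 89 probes, 60 had a sequence in the deposited table, and 52 of these kept at least 1 forward reading frame without a stop codon. The 6 sequences below are shown because they hold such a frame over their whole length, and they cover collagens, a laminin and integrins, both among the genes that changed (COL4A2, ITGB3) and among those that did not pass the test. Each has 60 bases, 5′ to 3′, and capitals mark complete codons of the open frame with most codons ending in G or C. The sources used here name no genome build, so no positions are given.
COL4A2: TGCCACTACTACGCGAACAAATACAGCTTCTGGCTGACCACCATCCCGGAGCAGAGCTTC
COL6A2: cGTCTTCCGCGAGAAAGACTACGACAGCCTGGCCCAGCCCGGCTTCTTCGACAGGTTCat
LAMA5: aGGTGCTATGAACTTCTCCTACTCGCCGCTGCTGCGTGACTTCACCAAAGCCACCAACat
ITGA5: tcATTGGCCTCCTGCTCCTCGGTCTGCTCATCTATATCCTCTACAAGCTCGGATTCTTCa
ITGB3: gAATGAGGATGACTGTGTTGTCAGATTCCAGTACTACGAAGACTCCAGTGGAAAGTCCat
ITGB4: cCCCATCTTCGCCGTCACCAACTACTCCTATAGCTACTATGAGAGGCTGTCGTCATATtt

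At C2 stage the genes of this set were more often up-regulated than down-regulated in comparison to C1. Of the 52 tested probes, 16 (30.8%) were higher and 5 (9.62%) were lower at C2 than at C1, against 15.3% and 12.8% of all 13865 valid probes (limma, 3 stages in 1 fit, Benjamini-Hochberg adjusted p under 0.01). Against NC1, 12 probes (23.1%) rose and 7 (13.5%) fell at C2, compared with 15.5% and 12.6% of all probes. The moderated F over the stages passed for 23 (44.2%), against 28.6%. The median difference of C2 minus C1 was 0.48 on the log2 scale over the 52 probes and 0.02 over all valid probes, and that of C2 minus NC1 was 0.43 and 0.11. The C2 arrays did not overlap the C1 arrays for 20 probes (38.5%), against 21.6% of all, nor the NC1 arrays for 13 (25%), against 20.9%. The probes passed a presence filter in each stage, so these counts describe only the detected genes. Both comparisons share the C2 arrays.

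**Figure D1:**
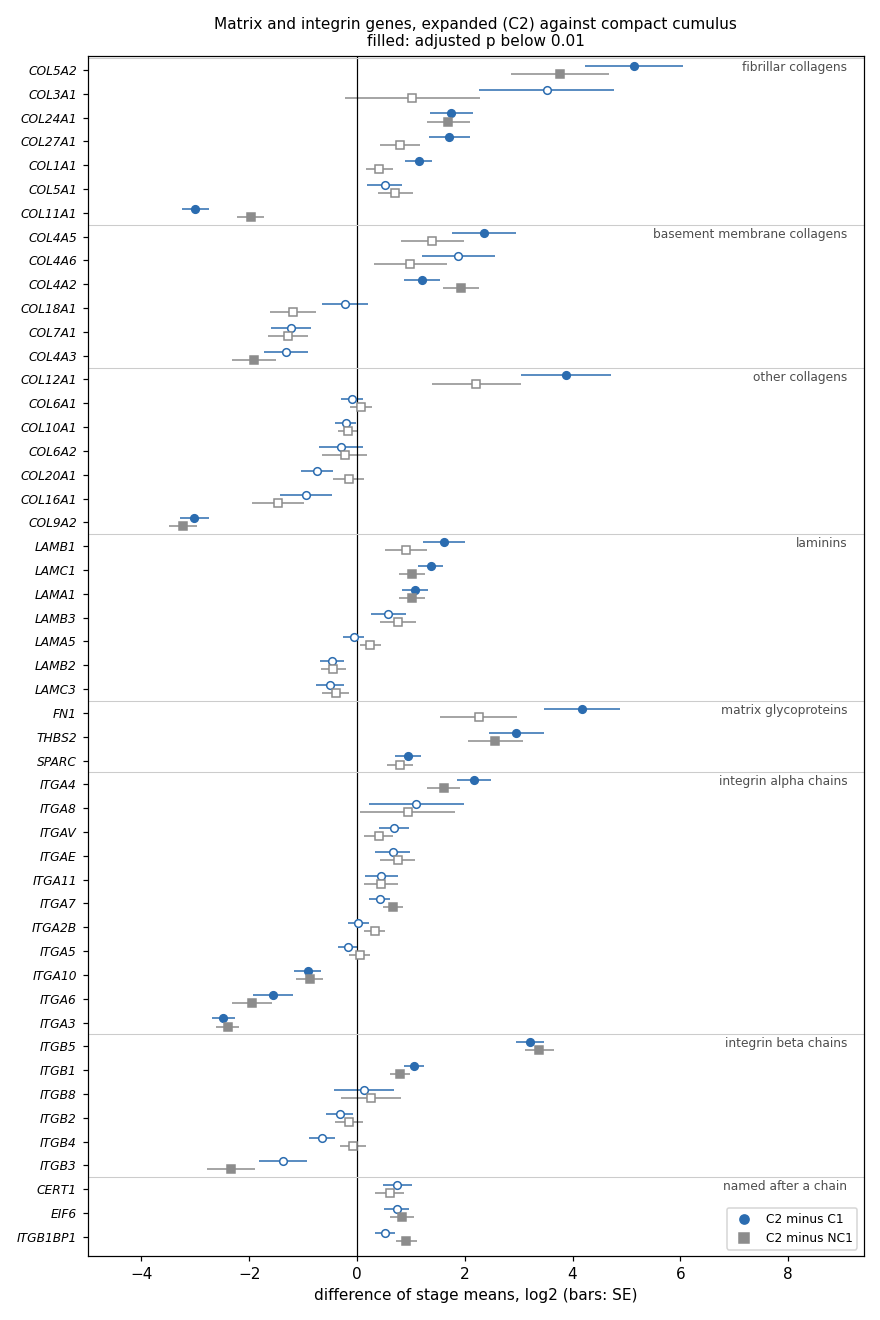
Differences in log2 signal of the 50 tested genes, grouped by family; circles are C2 minus C1 and squares C2 minus NC1, bars are standard errors, and filled symbols have an adjusted p under 0.01. COL5A2 (5.14), FN1 (4.18) and ITGB5 (3.21) stand to the right of 0, and COL9A2 (-3.02), COL11A1 (-2.998) and ITGA3 (-2.48) to the left in C2 minus C1.

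The C2 arrays fell into pairs. Over all valid probes the log2 difference between C2 replicates 1 and 5 had an SD of 0.444, that between 3 and 4 an SD of 0.512, and the other C2 pairs lay between 1.05 and 1.27. The median SD over the 52 probes was 0.387 in NC1, 0.360 in C1 and 0.655 in C2. Cell markers moved with these arrays. The mean level over 11 theca and stroma markers was 3.89 and 3.54 on C2 replicates 1 and 5, 2.23 to 2.51 on the other C2 arrays, and 2.87 to 3.41 on the compact-cumulus arrays. The mean over 15 leukocyte markers was -0.68 on C2 replicate 2 and 1.31 to 2.15 on the other C2 arrays, against -0.86 to 0.77 on the compact-cumulus arrays. The mean over 9 endothelial markers was -0.39 and -0.15 on C2 replicates 1 and 5, against -1.52 to -0.90 on the compact-cumulus arrays and -1.40 to -1.11 on the remaining C2 arrays. Of 14 endothelial markers on the array 9 were valid, and PECAM1, VWF, TIE1, TEK, CLDN5, PLVAP, KDR and ENG were detected at every stage, while CDH5, EMCN and SELE were detected on no array. Of 17 theca and stroma markers 11 were valid, among them PDGFRA and the matrix genes LUM and DCN, while OGN was detected on no array. Of 25 leukocyte markers 15 were valid. CD79A of B cells was detected on every array and CD79B on none, CD3E and CD8A of T cells were detected on 4 of the 5 C2 arrays and on no other, and S100A9 on all 5 C2 arrays and no other. The mean over the 14 valid of 16 granulosa and cumulus markers was 5.93 to 6.35 in NC1, 5.87 to 6.58 in C1, 5.44 and 5.32 on C2 replicates 1 and 5, below every compact-cumulus array, and 5.90 to 6.60 on the other C2 arrays. Oocyte transcripts changed with stage as well. The mean over the 4 valid of 11 oocyte markers was 1.53 to 2.39 in NC1, -1.06 to 1.39 in C1 and -1.17 to -0.05 in C2. ZP2, ZAR1, MOS and BTG4 were detected on 6 NC1 arrays, 4 C1 arrays and 0 C2 arrays, and the mean level of ZP2 was 3.36, -1.37 and -5.82. In such bulk samples fewer cells of a type and less RNA per cell cannot be told apart. The part of these other cells in the results was not tested.

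Most tested fibrillar collagens were higher at C2 than at C1, with a median difference of 1.71. Of 7 tested chains, 4 rose (COL5A2, COL24A1, COL27A1, COL1A1) and 1 fell (COL11A1) in comparison to C1. These were 57.1% and 14.3%, against 15.3% and 12.8% of all valid probes. In comparison to NC1, COL5A2 and COL24A1 rose and COL11A1 fell (28.6% and 14.3%, against 15.5% and 12.6%). COL5A2, a chain of the type V collagen that controls fibril width, read from -2.91 to 1.01 (median -1.12) in NC1 and from -3.91 to -0.65 (median -2.75) in C1. On C2 replicates 1 to 5 it read 5.38, 0.82, 1.47, 1.24 and 4.59. All C2 arrays thus lay above the C1 arrays, and only C2 replicate 2 lay within the NC1 range. The difference C2 minus C1 was 5.14 ± 0.91 (SE), a 35.2-fold rise (adjusted p = 0.00018954), and that to NC1 was 3.77 ± 0.91 (adjusted p = 0.0029012). The 2 highest C2 arrays were those with the high stroma marker levels. Without them the difference to C1 was 3.61 and still passed (adjusted p = 0.001726), and that to NC1 was 2.24 (adjusted p = 0.03592).

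COL24A1, a fibrillar collagen of developing bone and cornea, ranged from -2.37 to -0.52 (median -1.53) in NC1 and from -1.75 to -1.43 (median -1.68) in C1. Its C2 values were 1.76, -0.57, -1.02, -0.30 and 0.76, all above the C1 arrays. It rose 3.36-fold against C1 (difference 1.75 ± 0.40, adjusted p = 0.0018442) and 3.24-fold against NC1 (adjusted p = 0.0024045). Without C2 replicates 1 and 5 the difference to C1 was 0.99 (adjusted p = 0.0137) and that to NC1 0.94 (adjusted p = 0.01914), and under normexp background correction that to NC1 was 0.86 (adjusted p = 0.01964). COL27A1, a fibrillar chain of cartilage, rose 3.28-fold against C1 (adjusted p = 0.0013588) and did not pass against NC1 (adjusted p = 0.100). Without the same pair of arrays its difference to C1 was 1.06 (adjusted p = 0.007095).

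COL1A1, the main chain of type I collagen, read 5.17 to 6.07 (median 5.43) in NC1, 4.24 to 5.46 (median 4.81) in C1, and 5.26, 6.48, 5.99, 6.25 and 5.84 on the C2 arrays. The lowest C2 array, replicate 1, lay within the C1 range. The rise against C1 was 2.22-fold (difference 1.15 ± 0.25, adjusted p = 0.0013956), and the difference to NC1 did not pass (adjusted p = 0.209). Here the 2 arrays with high stroma marker levels were the lowest of C2, in contrast to COL5A2.

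COL11A1, a chain of type XI collagen that nucleates thin fibrils in cartilage, moved in the opposite direction. It read -0.72 to 0.37 (median -0.24) in NC1, 0.25 to 1.44 (median 0.85) in C1, and -1.56, -2.90, -2.02, -2.28 and -2.08 in C2. No C2 array reached a compact-cumulus array. It was 7.99-fold lower than in C1 (difference -2.998 ± 0.25, adjusted p = 4.6023e-08) and 3.92-fold lower than in NC1 (adjusted p = 6.6435e-06).

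COL3A1, the partner of type I collagen in soft tissue, had the widest spread of the tested fibrillar chains. It read -2.77 to 1.94 (median 0.09) in NC1, -5.16 to 0.29 (median -2.89) in C1, and 4.28, -2.93, 0.82, -0.52 and 3.06 in C2. The difference C2 minus C1 was 3.52 but did not pass (adjusted p = 0.0306), although it passed without C2 replicate 2 (4.49, adjusted p = 0.005465). C1 replicates 1 and 5, at -0.07 and 0.29, were above the other C1 arrays, as they were for COL5A2 (-0.65 and -1.06) and COL12A1 (-0.39 and -0.79). They were the 2 highest C1 arrays for 14 of the 52 probes (26.9%), against 4.41% of all probes, a pattern looked for after the values were seen. On the same 2 arrays the stroma marker mean was 3.41 and 3.41 and the leukocyte marker mean 0.01 and 0.02, above the other C1 arrays for both lists, and their part in the result was not tested. COL5A1, the partner chain of COL5A2, did not pass (C2 minus C1 0.51, adjusted p = 0.225), except against NC1 without C2 replicate 3 (1.03, adjusted p = 0.007501).

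**Figure D2:**
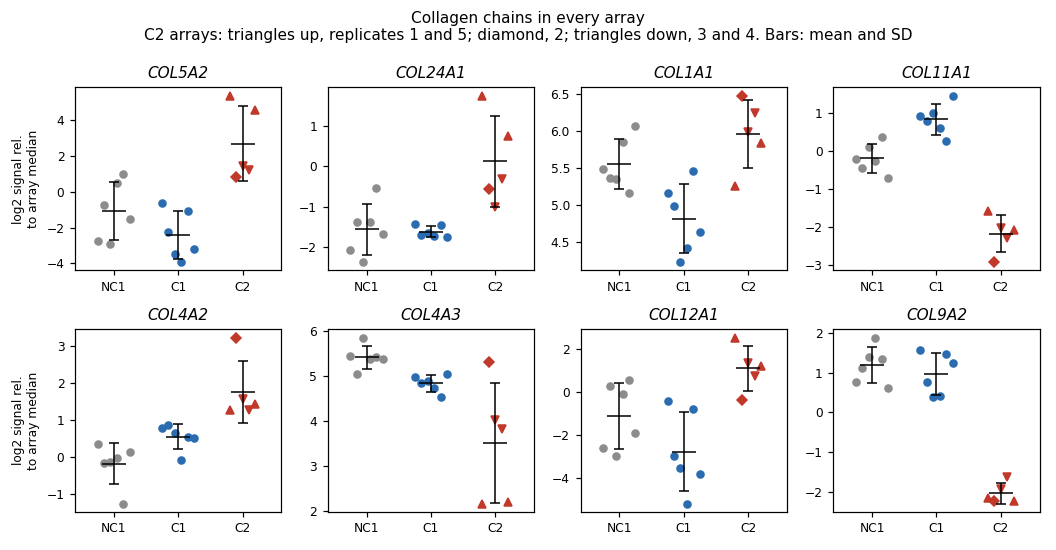
Log2 signal relative to the array median of 8 collagen chains on the NC1, C1 and C2 arrays; each point is an array, bars are mean and SD, and C2 symbols mark replicates 1 and 5 (up triangles), 2 (diamond) and 3 and 4 (down triangles). COL5A2 reads 5.38 and 4.59 on C2 replicates 1 and 5 and at most 1.47 on the others, while all C2 arrays lie below all others for COL11A1 and COL9A2.

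Among basement membrane collagens, COL4A2 and COL4A5 rose against C1, and none of the 6 tested chains fell. The risen were 33.3%, against 15.3% of all valid probes, of which 12.8% fell. In comparison to NC1, COL4A2 rose and COL4A3 fell, 16.7% each, against 15.5% and 12.6% of all valid probes. COL4A2, a chain of the common type IV network, read -1.25 to 0.35 (median -0.08) in NC1, -0.08 to 0.87 (median 0.60) in C1, and 1.27, 3.22, 1.55, 1.28 and 1.43 in C2. Every C2 array lay above every compact-cumulus array. It rose 3.81-fold against NC1 (difference 1.93 ± 0.33, adjusted p = 0.00016565) and 2.30-fold against C1 (difference 1.20 ± 0.33, adjusted p = 0.0077772). The second of these was lost in 15 of 32 alternatives, among them leaving out C2 replicate 2 (0.84, adjusted p = 0.01498). The others included 75th percentile scaling (1.08, adjusted p = 0.035) and quantile normalization (1.19, adjusted p = 0.01226). Array weights (0.96, adjusted p = 0.0182) and no presence filter (1.20, adjusted p = 0.01129) also ended it. It was also lost, at values from 1.08 to 1.25, on leaving out NC1 replicate 2, 3 or 4, C1 replicate 1, 3, 4, 5 or 6, or C2 replicate 3.

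The chains that replace COL4A1 and COL4A2 in specialised basement membranes did not move together. COL4A3 read 5.05 to 5.85 (median 5.40) in NC1, 4.54 to 5.05 (median 4.86) in C1, and 2.17, 5.32, 4.03, 3.82 and 2.21 in C2. It fell 3.76-fold against NC1 (difference -1.91 ± 0.41, adjusted p = 0.0011454). C2 replicate 2 stood within the NC1 range and the other C2 arrays below all compact-cumulus arrays. The difference to C1, -1.32, did not pass (adjusted p = 0.014687) but was -1.78 without C2 replicate 2 (adjusted p = 0.0002223).

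COL4A5 read 0.82 to 3.00 (median 1.65) in NC1, 0.48 to 1.25 (median 0.84) in C1, and 5.49, 2.15, 1.97, 1.93 and 4.66 in C2. All C2 arrays were above the C1 arrays, most of all the pair with high stroma and endothelial markers. It rose 5.14-fold against C1 (difference 2.36 ± 0.59, adjusted p = 0.0036532), but without C2 replicate 5 the difference was 2.01 (adjusted p = 0.01207), and without replicates 1 and 5 it was 1.14 (adjusted p = 0.03158). COL4A6, its neighbour in the collagen IV family, had a similar order of C2 values (3.77, -0.01, -0.27, -0.52 and 2.72) and did not pass (adjusted p = 0.0319).

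COL18A1, the source of endostatin, and COL7A1, the anchoring fibril collagen, did not pass. Their differences C2 minus C1 were -0.23 (adjusted p = 0.694) for COL18A1 and -1.23 (adjusted p = 0.0139) for COL7A1. COL7A1 passed against C1 without C2 replicate 1 (-1.50, adjusted p = 0.003256) or replicate 5 (-1.49, adjusted p = 0.003727), the 2 C2 arrays within the range of the compact-cumulus arrays for this gene. COL18A1 passed against NC1 without C2 replicate 1 (-1.47, adjusted p = 0.009389).

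Of the remaining collagens, COL12A1 rose and COL9A2 fell against C1, out of 7 tested. At 14.3% each, these shares were near the 15.3% and 12.8% of all valid probes. COL12A1, which coats fibrils, read -2.95 to 0.57 (median -0.98) in NC1, -5.16 to -0.39 (median -3.23) in C1, and 2.54, -0.37, 1.38, 0.78 and 1.24 in C2. The rise against C1 was 14.7-fold (difference 3.88 ± 0.83, adjusted p = 0.0010667), with C2 replicate 2 only just above the highest C1 array, and the difference to NC1 did not pass (adjusted p = 0.0403). COL9A2, a chain of the cartilage collagen that decorates type II fibrils, read 0.62 to 1.89 (median 1.23) in NC1, 0.38 to 1.59 (median 1.01) in C1, and -2.16, -2.23, -1.93, -1.63 and -2.24 in C2. Its C2 arrays were close to each other and far below all others. It was 8.10-fold lower than in C1 (difference -3.02 ± 0.26, adjusted p = 6.6377e-08) and 9.39-fold lower than in NC1 (adjusted p = 3.0194e-08).

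COL6A1 and COL6A2, chains of the beaded filaments around cells, differed little between C2 and C1, by -0.09 and -0.29 (adjusted p = 0.763 and 0.600). COL16A1 did not pass but split by array. Its C2 values were 2.90, 5.13, 5.58, 5.75 and 2.33, and its compact-cumulus values lay between 4.99 and 6.29, so that only C2 replicates 1 and 5 left that range. Without C2 replicate 3 or replicate 4, the difference to NC1 passed at -1.77 (adjusted p = 0.007757) and -1.82 (adjusted p = 0.005442). COL20A1 passed against C1 only without C2 replicate 4 (-1.01, adjusted p = 0.005083). COL10A1 did not pass in any comparison of the stages.

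Each chain of the classical laminin trimer alpha-1, beta-1, gamma-1 rose against C1. These were the 3 laminin chains that passed of the 7 tested, and none fell. The risen were 42.9%, against 15.3% of all valid probes, of which 12.8% fell. LAMA1 read 5.75 to 6.87 (median 6.27) in NC1, 5.78 to 6.83 (median 6.14) in C1, and 7.17, 6.70, 7.70, 7.63 and 7.32 in C2. Only C2 replicate 2 overlapped the compact-cumulus arrays. LAMA1 was 2.10-fold higher than in C1 (difference 1.07 ± 0.24, adjusted p = 0.0017097) and 2.03-fold higher than in NC1 (adjusted p = 0.0025309). Without C2 replicates 3 and 4 LAMA1 did not pass against C1 (0.83, adjusted p = 0.02327) or NC1 (0.78, adjusted p = 0.03084).

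LAMC1 read 1.38 to 2.07 (median 1.86) in NC1, 1.25 to 1.82 (median 1.32) in C1, and 2.15, 2.56, 3.02, 3.72 and 2.54 in C2. No C2 array overlapped a compact-cumulus array. It rose 2.58-fold against C1 (difference 1.37 ± 0.24, adjusted p = 0.00015641) and 2.03-fold against NC1 (adjusted p = 0.0021413). Without C2 replicates 3 and 4 the difference to NC1 was 0.64 (adjusted p = 0.02077). LAMB1 read 3.71 to 5.27 (median 5.07) in NC1, 3.12 to 4.87 (median 4.00) in C1, and 6.40, 5.40, 4.91, 5.17 and 6.30 in C2. It rose 3.08-fold against C1 (difference 1.62 ± 0.39, adjusted p = 0.0027344), its C2 arrays overlapped the NC1 arrays, and the difference to NC1 did not pass (adjusted p = 0.0695). Without C2 replicates 1 and 5, its 2 highest arrays, the difference to C1 was 1.14 (adjusted p = 0.03214).

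LAMA5, LAMB2, LAMB3 and LAMC3 did not pass against either stage, with differences C2 minus C1 from -0.50 for LAMC3 to 0.58 for LAMB3. LAMB3, a chain of the laminin of epithelial anchoring sites, passed against NC1 only without C2 replicate 2 (1.08, adjusted p = 0.004567).

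All 3 matrix glycoproteins of the set rose against C1, as did 15.3% of all valid probes. FN1, fibronectin, the ligand through which many cells bind interstitial matrix, read 0.58 to 3.99 (median 2.51) in NC1, -0.77 to 2.27 (median 0.49) in C1, and 3.43, 4.62, 6.65, 5.43 and 3.49 in C2. The C2 arrays lay above all C1 arrays but overlapped NC1. The rise was 18.1-fold against C1 (difference 4.18 ± 0.71, adjusted p = 0.00012816), and the difference to NC1 was 2.26 (adjusted p = 0.0163), which passed without C2 replicate 1 (2.58, adjusted p = 0.009741). Without both C2 replicates 1 and 5 the difference to C1 was 5.02. The arrays with high stroma and endothelial markers, replicates 1 and 5, were the lowest C2 arrays for FN1.

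THBS2, thrombospondin-2, a matricellular protein that restrains vessel growth, read 3.50 to 5.31 (median 4.71) in NC1, 2.17 to 5.38 (median 4.36) in C1, and 7.87, 5.63, 7.23, 7.47 and 7.39 in C2. All C2 arrays lay above the others. It rose 7.78-fold against C1 (difference 2.96 ± 0.51, adjusted p = 0.00013703) and 5.94-fold against NC1 (adjusted p = 0.00054737). SPARC, a collagen-binding matricellular protein, read 7.73 to 8.77 (median 8.15) in NC1, 7.78 to 8.52 (median 8.13) in C1, and 9.70, 8.54, 8.55, 8.91 and 9.53 in C2. It rose 1.93-fold against C1 (difference 0.95 ± 0.24, adjusted p = 0.0041649). This call was lost without C2 replicate 1 (0.79, adjusted p = 0.01426), C2 replicate 5 (0.83, adjusted p = 0.01408), C1 replicate 3 (0.89, adjusted p = 0.01137) or C1 replicate 4 (0.89, adjusted p = 0.01107). It was also lost under normexp background correction (0.87, adjusted p = 0.02934) and with the close C2 replicates averaged (0.87, adjusted p = 0.01955). Without both C2 replicates 1 and 5 the difference was 0.57 (adjusted p = 0.05654), and without C1 replicates 1 and 5 it was 1.00 (adjusted p = 0.01228). The difference to NC1 was 0.80 (adjusted p = 0.0125) and passed without NC1 replicate 5 (0.91), C2 replicate 2 (0.93) or C2 replicate 3 (0.93).

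**Figure D3:**
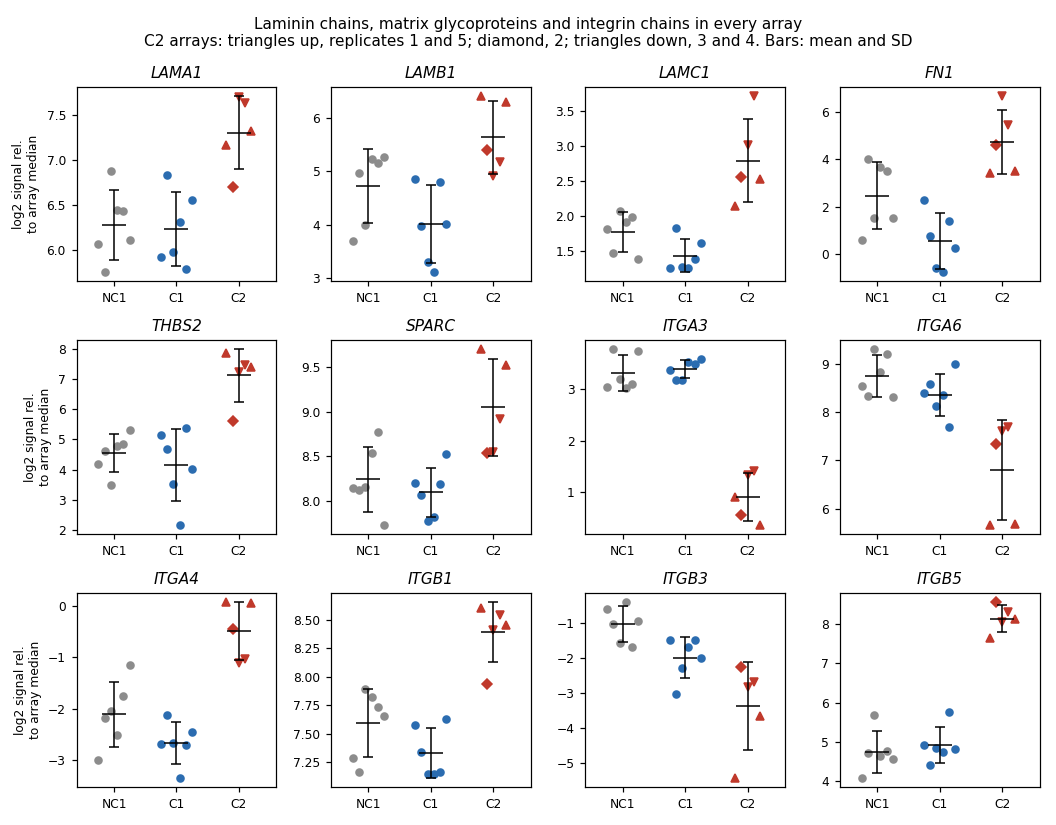
Log2 signal relative to the array median of 3 laminin chains, 3 glycoproteins and 6 integrin chains on every array; points, bars and C2 symbols are as in the plot of collagen chains. LAMA1, LAMB1, LAMC1 and THBS2 are higher at C2 than at C1, ITGA3 and ITGA6 are lower, and ITGB5 reads 7.64 to 8.55 at C2 against at most 5.76 on all other arrays.

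On the receptor side, the integrin alpha chains moved in both directions. Of 13 tested probes of 11 genes, 1 rose and 3 fell against C1, and 2 rose and 3 fell against NC1. Against C1 these were 7.69% and 23.1%, beside 15.3% and 12.8% of all valid probes. Against NC1 they were 15.4% and 23.1%, beside 15.5% and 12.6%. ITGA3, which pairs with beta-1 to bind laminin, read 3.02 to 3.78 (median 3.15) in NC1, 3.18 to 3.60 (median 3.44) in C1, and 0.90, 0.55, 1.34, 1.42 and 0.36 in C2. No C2 array came near a compact-cumulus array. ITGA3 was 5.58-fold lower than in C1 (difference -2.48 ± 0.22, adjusted p = 6.9789e-08) and 5.29-fold lower than in NC1 (adjusted p = 1.0825e-07).

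ITGA6, also part of laminin receptors, read 8.31 to 9.30 (median 8.68) in NC1, 7.69 to 8.99 (median 8.38) in C1, and 5.66, 7.34, 7.60, 7.69 and 5.68 in C2. C2 replicates 1 and 5 were the lowest, and replicate 4 lay only just below the lowest C1 array. The fall was 2.96-fold against C1 (difference -1.56 ± 0.37, adjusted p = 0.0024931) and 3.88-fold against NC1 (adjusted p = 0.00038143). Without C2 replicates 1 and 5 the difference to C1 was -0.81 (adjusted p = 0.02528). ITGA10, a collagen-binding chain of cartilage, was 1.89-fold lower than in C1 (adjusted p = 0.0069193) and 1.84-fold lower than in NC1 (adjusted p = 0.0091324). These were weak calls. The first was lost on leaving out C1 replicate 2, 4 or 6 or C2 replicate 2, 3 or 4, with differences from -0.90 to -0.74. The second was lost on leaving out any of these C2 arrays, NC1 replicates 1 to 5 or C1 replicates 1 to 5, one at a time, with differences from -0.93 to -0.71.

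ITGA4, which binds fibronectin and the endothelial VCAM1 and is abundant on leukocytes, was the alpha chain that rose in both comparisons. It read -2.99 to -1.16 (median -2.11) in NC1, -3.34 to -2.11 (median -2.68) in C1, and 0.07, -0.46, -1.10, -1.04 and 0.05 in C2. All C2 arrays lay above the others. The rise was 4.50-fold against C1 (difference 2.17 ± 0.31, adjusted p = 2.0627e-05) and 3.05-fold against NC1 (adjusted p = 0.00042874). On C2 replicate 2, where the leukocyte marker mean of -0.68 lay within the range of the compact-cumulus arrays, ITGA4 read -0.46, and the part of leukocytes in the result was not tested. ITGB2, the beta chain restricted to leukocytes, did not pass (C2 minus C1 -0.32, adjusted p = 0.336). It is 1 of the 15 valid leukocyte markers, of which 7 rose and 0 fell against C1, with a median difference of 1.86.

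ITGA7, a laminin-binding chain of muscle, was 1.59-fold higher than in NC1 (adjusted p = 0.0097989) and did not pass against C1. That call lay at the threshold, and leaving out NC1 replicate 1, 2, 3, 4, 5 or 6, C1 replicate 1, 2, 3 or 4, or C2 replicate 1, 2, 4 or 5 ended it, with differences from 0.57 to 0.71. The fibronectin receptor chain ITGA5 differed by -0.16 from C1 (adjusted p = 0.518). Both probes of ITGAV, the chain of vitronectin receptors, did not pass, at 0.69 (adjusted p = 0.0528) and 0.34 (adjusted p = 0.346). ITGA8, ITGA11, ITGAE and both probes of ITGA2B, the platelet chain, did not pass against either stage. ITGA8 was the most variable of them in C2, with values of 2.74, -1.92, -0.33, -2.17 and 3.73.

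Of the 6 integrin beta chains tested, ITGB5 and ITGB1 rose in both comparisons and ITGB3 fell against NC1. The risen were 33.3%, beside 15.3% (C1) and 15.5% (NC1) of all valid probes. The fallen were 16.7% against NC1, beside 12.6%. ITGB5, which pairs with the alpha-V chain to bind vitronectin, read 4.09 to 5.69 (median 4.69) in NC1, 4.42 to 5.76 (median 4.84) in C1, and 7.64, 8.55, 8.04, 8.31 and 8.11 in C2. The C2 arrays were close together and far above the others. It was 9.26-fold higher than in C1 (difference 3.21 ± 0.27, adjusted p = 3.7242e-08) and 10.4-fold higher than in NC1 (adjusted p = 2.0257e-08).

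ITGB1, the common partner of most collagen, laminin and fibronectin receptors, read 7.16 to 7.89 (median 7.69) in NC1, 7.14 to 7.63 (median 7.25) in C1, and 8.61, 7.94, 8.42, 8.55 and 8.46 in C2. Replicate 2 was the lowest C2 array and still above all others. The rise was 2.09-fold against C1 (difference 1.06 ± 0.18, adjusted p = 0.0001402) and 1.74-fold against NC1 (adjusted p = 0.0018559). The call against NC1 was lost without C2 replicates 1 and 5 (0.71, adjusted p = 0.01484), without C2 replicates 3 and 4 (0.74, adjusted p = 0.01246), and with the close C2 replicates averaged (0.72, adjusted p = 0.01774). ITGB1 thus rose while ITGA3 and ITGA6, with which it pairs, fell.

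ITGB3, which pairs with the alpha-V and the platelet alpha chains, read -1.67 to -0.40 (median -0.96) in NC1, -3.01 to -1.48 (median -1.84) in C1, and -5.42, -2.24, -2.81, -2.69 and -3.64 in C2. C1 lay between the other stages by its median and overlapped both, while C2 and NC1 did not overlap. ITGB3 was 5.05-fold lower than in NC1 (difference -2.34 ± 0.45, adjusted p = 0.00043611). The difference to C1, -1.38, did not pass (adjusted p = 0.0201) except without C2 replicate 2 (-1.65, adjusted p = 0.006559). ITGB4, the partner of ITGA6 in hemidesmosomes, and ITGB8 did not pass, at -0.65 (adjusted p = 0.0433) and 0.13 (adjusted p = 0.868).

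The spelling rule also took 4 genes named after a chain they interact with or resemble, and 3 were tested. ITGB1BP1, a protein that binds the tail of integrin beta-1 and modulates its activation, read 4.57 to 5.15 (median 4.85) in NC1, 5.07 to 5.53 (median 5.18) in C1, and 5.61, 5.35, 5.99, 6.36 and 5.45 in C2. It was 1.89-fold higher than in NC1 (adjusted p = 0.00072337) and did not pass against C1. EIF6, a ribosome factor once named after integrin beta-4, was 1.79-fold higher than in NC1 (adjusted p = 0.0064582). This call was lost on leaving out NC1 replicate 1, 2, 4 or 6 or C2 replicate 1, 3, 4 or 5, with differences from 0.71 to 0.85, while EIF6 passed against C1 without C1 replicate 6 (0.85) or C2 replicate 2 (0.94). CERT1, a ceramide transporter, did not pass. It passed against C1 without C2 replicate 1 (0.96, adjusted p = 0.005434).

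**Figure D4:**
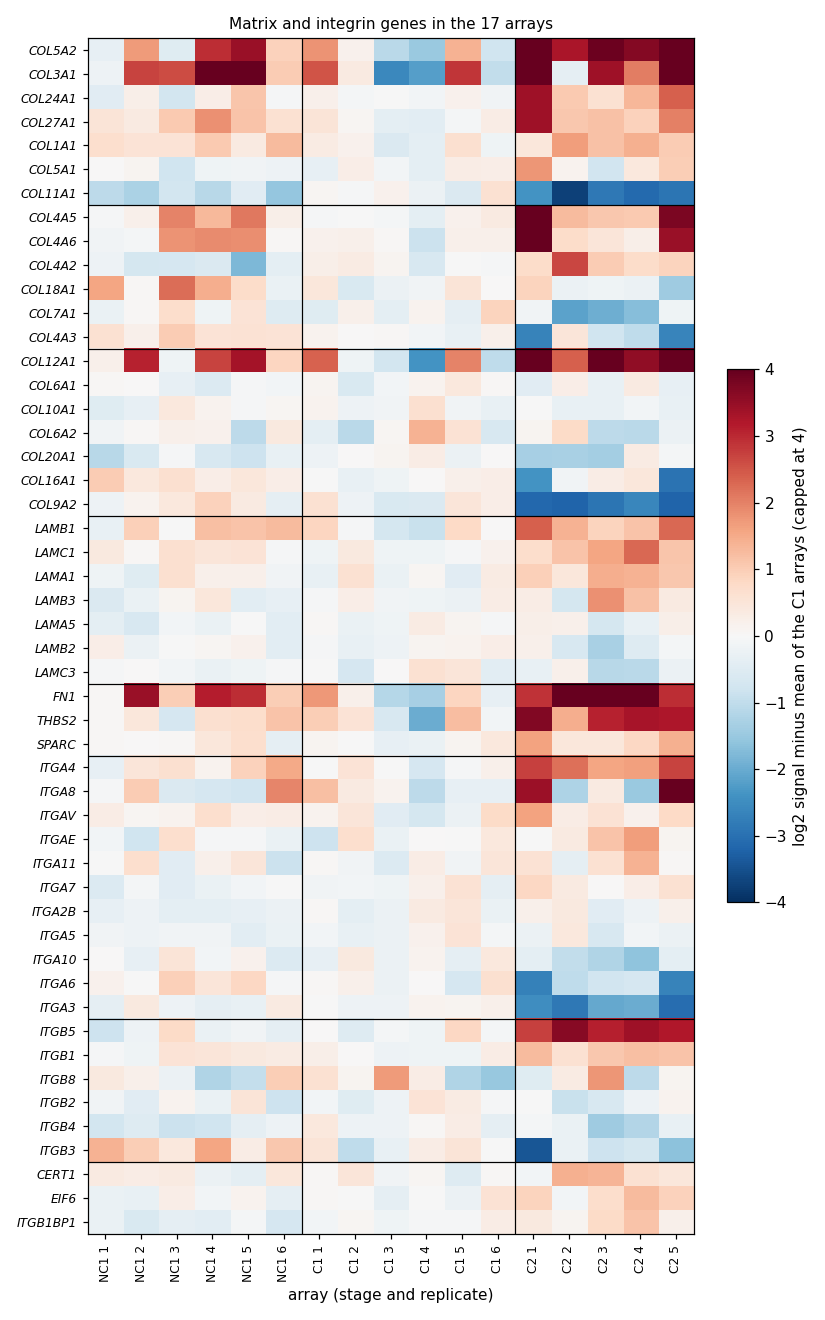
Heat map of the 50 tested genes (rows, by family) on the 17 arrays (columns, by stage), as log2 signal minus the mean of the C1 arrays, with the colour scale ending at -4 and 4. C2 replicates 1 and 5 stand apart from the other C2 arrays for COL5A2, COL4A5 and ITGA6, whereas COL9A2, COL11A1, ITGA3 and ITGB5 have the same direction on all 5 C2 arrays.

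Between NC1 and C1, no member passed the test (limma, adjusted p under 0.01), and 8 of all valid probes (0.0577%) did. At an unadjusted p under 0.05 there were 11 of the 52 tested members, against 1365 of 13865 valid probes (9.84%). With array weights, a fit that lets noisier arrays count less and that stopped short of its tolerance, 1 member passed. It was COL11A1, with a difference C1 minus NC1 of 1.12 (adjusted p = 0.0009908) in that fit, and of 1.03 (adjusted p = 0.0803) without the weights. The other 10 were COL12A1 (-1.67), FN1 (-1.92), COL1A1 (-0.74), COL27A1 (-0.92), COL18A1 (-0.96), ITGB3 (-0.96), COL4A2 (0.73), ITGB4 (0.57), COL20A1 (0.59) and ITGB1BP1 (0.40), given as differences C1 minus NC1. For FN1, COL1A1, COL12A1, COL27A1 and COL5A2, the C2 minus C1 difference was larger than the C2 minus NC1 difference, since their C1 means lay below their NC1 means.

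Within slides the calls kept their direction, with 1 exception. The arrays lay on 6 slides, each with 1 NC1 and 1 C1 array, and 5 of these also had a C2 array. All 21 members called between C2 and C1 had the same sign on all 5 slides and on both scan days. Of the 19 called between C2 and NC1, 18 had the same sign on all 5 slides, the exception being COL4A3 with 4 of 5. The C2 arrays did not overlap the other stage for 19 of the 21 and 13 of the 19, which fixes the sign there. Since the members were called on these same arrays, the counts describe the calls and are no further test of them.

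The 37 probes left out of the test were also part of the set. Of these, 8 reached the presence limit of 80% of arrays in 2 stages, 4 in 1 stage, and 25 in no stage. Among the last, LAMB4, COL8A1, COL8A2, COL13A1 and LOC615033, annotated as a laminin alpha-4 precursor, were detected on no array. The remaining 20 were found on a few arrays, among them COL4A1, the usual partner of COL4A2, on 1 NC1 array and 1 C2 array.

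Among the 8, COL4A4, a partner of COL4A3, read -3.996, -1.28, -2.43, -2.64 and -4.33 in C2, where it was present on 3 arrays, and was lowest on the same arrays as COL4A3. In the fit that kept probes present in any 2 stages, its difference was -1.55 for C2 minus C1 and -2.05 for C2 minus NC1. It entered that fit through NC1 and C1, where it was higher, so no p-values are given. It was kept out of the main test by the C2 arrays without a signal, so the counts of fallen genes given there do not include it.

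COL1A2, the second chain of type I collagen, was present on 6 NC1 arrays, 3 C1 arrays and all 5 C2 arrays, so that its C1 level is in part only a bound. It read -1.66 to 2.25 in NC1 and 3.38, -2.84, 1.62, -0.38 and 3.17 in C2. Its C1 values were 0.12 and -0.16 on replicates 1 and 5 and -4.61 or lower on the others. In the fit of probes present in any 2 stages, its difference C2 minus C1 was 4.40. It entered that fit through NC1 and C2, where it was high, so no p-value is given for this difference. Its difference C2 minus NC1 did not pass there (adjusted p = 0.843). A second COL1A2 probe was near background on most arrays. In the fit of probes present in any 2 stages, the leukocyte chains ITGAL and ITGB7 rose against C1 by 2.08 (adjusted p = 0.0031133) and 2.11 (adjusted p = 0.0039765). The ITGAL probe of that fit read -3.81 on C2 replicate 2 and -1.41 to -0.34 on the others. Its C2 arrays had the same order as for the leukocyte marker mean, whose list holds ITGB2 but not ITGAL or ITGB7. A second ITGAL probe was detected on 1 C2 array and on no compact-cumulus array, and was not in that fit. ITGB7 read -2.19 on C2 replicate 2, above all compact-cumulus arrays except NC1 replicate 5 (-0.35). COL23A1, a membrane-spanning collagen, was present on 3 NC1, 6 C1 and 5 C2 arrays. It read -4.62 to -3.16 in NC1, -3.26 to -2.32 in C1 and -2.79 to -1.04 in C2, and did not pass against C1 (adjusted p = 0.0115). LAMA2 did not pass.

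ITGBL1, an integrin-beta-like protein, was present on 1 of 5 C2 arrays. Its C2 level was at least 6.63-fold lower than that of NC1 and at least 14.1-fold lower than that of C1. For such probes the bound sets the dim stage at the lowest signal well above background on each array, or at the probe's own value where that was higher. COL14A1, a fibril-coating collagen, was the clearest case in the other direction. It was present on all 5 C2 arrays, at -3.46, -1.59, -0.92, -0.88 and -2.15, and on no compact-cumulus array. It was at least 11.0-fold higher at C2 than in C1 and at least 5.00-fold higher than in NC1, and C2 replicates 1 and 5, with the high stroma markers, were its lowest C2 arrays. LAMA3, a laminin alpha chain of epithelia, was at least 8.67-fold higher at C2 than in C1, with 1.47 and 0.34 on C2 replicates 3 and 4 and -3.26 or lower on the others. LOC534053, annotated as a laminin gamma-1 precursor, was at least 3.96-fold higher than in NC1. COL11A2 was present on 5 C1 arrays and 1 C2 array. Its C2 replicates 1 and 5, at -3.77 and -3.16, lay within the C1 range of -4.29 to -3.10, and with no presence filter its difference C2 minus C1 of -0.48 did not pass (adjusted p = 0.283).

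Further probes of the same proteins were not taken up by the spelling rule, since the design names them in another way. There were 16, of which 8 were valid, and none is counted above. NID2, nidogen-2, a linker of laminin and type IV collagen, rose by 6.76 ± 0.89 against C1 (adjusted p = 8.564e-06) and also against NC1 (5.26, adjusted p = 0.0001301). SPARCL1, the relative of SPARC, fell by 2.42 against C1 (adjusted p = 4.69e-06), in the opposite direction to SPARC. The 2 probes of HSPG2, perlecan, disagreed, with -1.40 (adjusted p = 3.536e-05) and -0.14 (adjusted p = 0.673) against C1. A second ITGA6 probe fell by 2.02 (adjusted p = 0.004787) against C1. THBS1, thrombospondin-1, did not pass against C1 (-0.71, adjusted p = 0.135), nor did a second LAMB2 probe (-0.55) or a probe described as integrin alpha-2 (-0.68). NID1 was present on 1 C1 array only and was not tested.

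Genes that make, surround or read this matrix were taken from lists. Beside their counts against C1 stand 15.3% higher and 12.8% lower of all valid probes. Members on them are ITGB1BP1 in the adhesion complex, ITGB2, ITGAM and ITGAX among leukocyte markers, and ITGA2B among platelet markers. Of 22 tested genes of collagen synthesis and crosslinking, 3 rose and 1 fell against C1 (median difference 0.10). These were P4HA3, a prolyl hydroxylase subunit (6.08, adjusted p = 1.29e-08), PCOLCE2, an enhancer of procollagen processing (4.20, adjusted p = 1.409e-08), P3H2, which hydroxylates other prolines (1.97, adjusted p = 3.742e-06), and the fallen PCOLCE (-0.82, adjusted p = 0.006852). Of 30 other matrix glycoproteins and small proteoglycans, 5 rose and 5 fell against C1 (median 0.09). The lowest adjusted p-values were those of MFAP2, a microfibril protein (-4.32, adjusted p = 4.641e-11), TNC, tenascin-C (6.63, adjusted p = 7.416e-11), PRELP, a proteoglycan that anchors basement membranes (-4.90, adjusted p = 1.151e-09), and FBLN1, fibulin-1 (4.42, adjusted p = 1.251e-09).

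Of 15 non-integrin matrix receptors, 2 rose and 5 fell against C1 (median -0.74). Of all valid probes, 15.3% rose and 12.8% fell against C1. The syndecans SDC2 (1.76, adjusted p = 2.163e-05) and SDC4 (1.62, adjusted p = 0.0001329), heparan sulfate coreceptors, rose, while the collagen receptor DDR1 (-1.28, adjusted p = 0.0002196) and SV2B (-1.46, adjusted p = 0.001301) fell. Of 38 genes of the integrin adhesion complex, which includes the member ITGB1BP1, 10 rose and 2 fell against C1 (median 0.28). CAV1, the caveolin that associates with integrins (6.91, adjusted p = 8.36e-09), the docking protein BCAR1 (1.62, adjusted p = 1.462e-06) and VASP, an actin elongation factor (1.89, adjusted p = 3.833e-06), rose, and NEDD9, a relative of BCAR1, fell (-3.86, adjusted p = 9.692e-06).

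In the marker lists, 7 of 15 leukocyte genes, of which ITGB2 is a member of the set, rose and none fell against C1, with a median of 1.86. For this and the lists below, 15.3% of all valid probes rose and 12.8% fell against C1. Among 9 endothelial genes 2 rose, KDR and ENG, of which KDR rose by 3.58. Of 11 theca and stroma genes 2 rose and 2 fell, led by MYH11 (-3.11) and LUM (3.79). DCN was counted by its brighter probe, with a difference C2 minus C1 of -0.07. Its other probe had means of -0.81 in NC1, -1.60 in C1 and 2.48 in C2. LUM and DCN are also on the list of matrix glycoproteins, and ENG is on both the stroma and the endothelial list. None of 2 red blood cell and platelet genes passed, 1 of them the member ITGA2B. None of the 4 oocyte genes tested passed against C1, and 3 fell against NC1, as did 12.6% of all valid probes. Oocyte markers that were not detected at C2, such as ZP2, are outside that test. Of 14 granulosa and cumulus genes 4 rose and 6 fell against C1.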

How the data were processed

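Each of the 17 cumulus samples was hybridised to 1 Agilent 1-colour bovine array. The authors deposited the intensity of each spot, background-corrected and detrended by Feature Extraction 10.5.1.1 and not scaled between arrays. They also deposited a table of median-scaled log2 values, used here for its probe sequences and as an alternative to the main values. For each probe, the log2 intensities of its uniform, non-outlying spots were averaged, and arrays were scaled to a median of 0 over non-control probes. Presence required 50% or more of a probe's spots to be uniform, unsaturated and well above background. Valid probes were those present in 80% or more of the arrays in all 3 stages. Present probes made up 66.0% to 82.7% of an array, its median signal was 64.2 to 208, its median background 20 to 24, and no spot was saturated. The number of arrays limits the precision.

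Stages were compared with limma 3.58.1 in R 4.3.3 (lmFit and eBayes, 3 stages in 1 fit, Benjamini-Hochberg adjustment over 13865 probes), with a threshold of 0.01. The study's methods name a one-factor ANOVA with this correction. A fold is 2 raised to the size of the log2 difference. Groups and replicate numbers follow the labels, and each sample came from its own animal per the methods, so numbers were not taken as pairs. The correlation of the deviations of same-numbered arrays lay between -0.317 and 0.252. The fit was tested on simulated data with independent noise and the same spread in all stages. The simulation lacked the close pairs and the wider spread of the C2 arrays, so it does not cover them. Of the 89 member probes, 19 were named through a RefSeq accession and 37 through a gene number, and the others by the name in the array file. For each family, up to 4 genes with the lowest adjusted p of the F have their values given, and the brightest valid probe stands for a gene. Of each list, up to 4 genes past the threshold are named. The alternatives were 75th percentile and quantile scaling, normexp background correction, the authors' log2 values, averaging of all spots and other presence filters. Further alternatives were array weights, blocks for replicate number and slide, a scan day term, averaging of the close C2 replicates, and leaving out arrays. Members, lists and tests were chosen with earlier results of these data known. The 3 alternatives that leave out 2 arrays were added after the data were seen. The values of 1 member are not reported here.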

Additional observations from a re-analysis of the deposited data

Results flagged for a closer look

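Of 150 combinations of tested gene and stage, 6 had 1 array whose distance to the nearest other array was large for the range of its stage (Dixon's criterion), and chance flags about 1 in 20. C2 replicate 2 was the array in 3 of them. It read 3.22 for COL4A2, with the nearest array at 1.55, and it was the lowest C2 array for ITGB1, at 7.94 with the nearest at 8.42, and for THBS2, at 5.63 with the nearest at 7.23. COL4A2 was also low on NC1 replicate 5, at -1.25 with the nearest array at -0.16. COL4A6 was low on C1 replicate 4, at -1.60 with the nearest at -0.70. COL5A1 was low on NC1 replicate 3, at 0.0059 with the nearest at 0.60.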

How the results depend on the processing

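Over 32 alternatives, 11 of the 21 members called between C2 and C1 passed in every one, namely COL5A2, COL27A1, COL11A1, COL9A2, LAMC1, FN1, THBS2, ITGA3, ITGA4, ITGB1 and ITGB5. The other 10 were lost in at least 1, and none changed direction. Of the 19 called between C2 and NC1, 10 passed in every one, 9 were lost in at least 1, and none changed direction.

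Members lower at C2 than at C1 numbered 8 among 60 probes present in any 2 stages and 8 among all 89 with no filter, against 5. Both settings let in probes that were dim at C2, such as COL4A4 and ITGBL1. Between C1 and NC1 there was 1 member with array weights, a fit that stopped short of its tolerance, against 0. Members higher at C2 than in NC1 numbered 7 with the close C2 replicates averaged, against 12. A one-factor test that lets the spread differ between stages passed 7 members, against 23. The counts in this section stand without the share over all probes, so they do not show whether a change is particular to the set. With 1 array left out at a time, 18 to 24 members differed among the stages, 14 to 17 were higher and 4 to 6 lower than in C1, 10 to 13 were higher and 6 to 9 lower than in NC1, and 0 differed between C1 and NC1. With the replicate number as a block, 18 members differed among the stages, 16 were higher and 4 lower than in C1, 10 higher and 6 lower than in NC1, and 0 differed between C1 and NC1. Same-numbered arrays share no animal, and the methods' ANOVA also gave 18.

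Leaving out C2 replicates 1 and 5 gave 13 higher and 7 lower than in C1, leaving out C2 replicates 3 and 4 gave 15 and 5, and leaving out C1 replicates 1 and 5 gave 13 and 5. Scaling to the 75th percentile moved the median of all probes by -0.13 (C2 minus C1) and -0.15 (C2 minus NC1), and quantile normalization by -0.08 and -0.11. Against C1, COL1A1 did not pass with either (1.02, adjusted p = 0.01002, and 0.95, adjusted p = 0.01786). Nor did COL4A2 (1.08, adjusted p = 0.035, and 1.19, adjusted p = 0.01226). ITGA7 against NC1 did not pass with either (0.52, adjusted p = 0.08659, and 0.55, adjusted p = 0.05854). LAMB1 against C1 did not pass with quantile normalization (1.44, adjusted p = 0.01138). The cause was not tested beyond these shifts. ITGA4 against NC1 did not pass under normexp background correction (0.63, adjusted p = 0.02131). Dim probes such as COL14A1 and LAMA3 have only a bound, since their signal was near background in at least 1 stage.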
